A study of Mus musculus with 6 samples.

Results

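The genes described here encode 27 proteins of the lysosome, out of 28324 genes in a table of single-cell counts from mouse hippocampus. They were taken by name from a list drawn up with earlier results of these data known. The list held 6 of the lysosomal membrane (Lamp1, Lamp2, Cd63, Cd68, Laptm4a, Laptm5), 7 proteases (Ctsa, Ctsb, Ctsd, Ctsl, Ctss, Ctsz, Tpp1), 3 glycosidases (Hexa, Gusb, Neu1), 5 of lipid handling (Psap, Npc1, Npc2, Lipa, Asah1), and 6 of the proton pump, ion channel and other functions (Atp6v0c, Atp6v0d1, Atp6v1a, Mcoln1, Cln3, Grn). All 27 were found in the table. Cells came from the hippocampus of APP/PS1 mice, 10 weeks old, and were profiled by Drop-Seq, which captures the 3′ ends of messenger RNA from single cells in droplets and counts each captured molecule once by its unique molecular identifier (UMI). In 3 mice the treatment was an antisense oligonucleotide (ASO), and in 3 it was phosphate buffered saline (PBS). The series title names IDOL as what was reduced, the protein that the gene Mylip encodes, a ubiquitin ligase that marks receptors of the LDL receptor family for degradation. All 6 mice carried the APP/PS1 transgenes. The comparison is therefore between treatments of transgenic mice, against saline and not against another oligonucleotide, and holds no mouse without amyloid transgenes.

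Lysosomes break down proteins, lipids and sugars at acid pH. Membrane proteins such as LAMP1 enclose the organelle, a vacuolar proton ATPase (V-ATPase) acidifies it, cathepsins cut proteins, glycosidases trim sugar chains, and NPC1 with NPC2 carries cholesterol out. In the brain, microglia and macrophages are known for a large lysosomal system that degrades engulfed material, amyloid included, while neurons depend on the proton pump both for lysosomes and for filling synaptic vesicles. Many lysosomal genes carry in their promoters the CLEAR element, whose core TCACGTG is bound by the transcription factor TFEB.

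Promoter windows are shown first because they are what several of these genes share outside the expression table. RefSeq start sites on GRCm38.p6 gave windows from 250 bases before to 50 after each start for 24 of the 27 genes, and Ctsb, Npc1 and Asah1 had no entry. TCACGTG stood on either strand in the windows of 7 of the 24 genes, or 29.2%, namely Lamp1, Ctsa, Ctsd, Atp6v0d1, Atp6v1a, Mcoln1 and Cln3. The same letters were in 18 of 65 other lysosomal genes, or 27.7%, and in 4.29% of all 27025 genes with a window. The shorter palindrome CACGTG, which overlaps it, was in 8 of the 24 (33.3%) and in 8.09% of all genes. Ctsd and Cln3 are printed because they hold the motif and are among the genes named for microglia below; Lamp1 and Atp6v1a were added after their values were seen, as the holders with their highest levels in oligodendrocytes and in dentate neurons. Capitals mark TCACGTG or its reverse complement CACGTGA, and overlapping copies run together.
Ctsd, chr7:142387778-142388077, minus strand: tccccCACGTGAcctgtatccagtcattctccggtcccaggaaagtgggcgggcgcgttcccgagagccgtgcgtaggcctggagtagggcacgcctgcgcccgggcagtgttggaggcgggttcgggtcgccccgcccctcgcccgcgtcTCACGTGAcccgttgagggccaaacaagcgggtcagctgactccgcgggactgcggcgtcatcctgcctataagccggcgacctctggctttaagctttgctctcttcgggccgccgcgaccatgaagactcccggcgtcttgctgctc
Cln3, chr7:126583187-126583486, minus strand: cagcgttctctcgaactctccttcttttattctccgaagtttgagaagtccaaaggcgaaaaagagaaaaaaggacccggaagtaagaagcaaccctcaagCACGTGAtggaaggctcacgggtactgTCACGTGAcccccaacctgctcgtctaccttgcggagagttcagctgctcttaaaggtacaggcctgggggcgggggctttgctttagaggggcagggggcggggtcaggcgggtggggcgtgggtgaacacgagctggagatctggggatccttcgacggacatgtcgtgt
Lamp1, chr8:13158911-13159210, plus strand: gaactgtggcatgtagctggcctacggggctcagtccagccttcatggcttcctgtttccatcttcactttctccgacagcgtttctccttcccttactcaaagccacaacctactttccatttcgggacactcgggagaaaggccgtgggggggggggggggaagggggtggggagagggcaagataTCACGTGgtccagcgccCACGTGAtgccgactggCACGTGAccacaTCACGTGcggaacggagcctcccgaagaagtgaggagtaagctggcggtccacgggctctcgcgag
Atp6v1a, chr16:44139210-44139509, minus strand: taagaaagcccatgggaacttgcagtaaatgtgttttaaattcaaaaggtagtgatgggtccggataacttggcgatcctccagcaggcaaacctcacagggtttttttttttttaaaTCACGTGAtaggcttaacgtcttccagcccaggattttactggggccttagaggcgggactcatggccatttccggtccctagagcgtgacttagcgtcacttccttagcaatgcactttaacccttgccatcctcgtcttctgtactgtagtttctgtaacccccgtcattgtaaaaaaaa
The Lamp1 window held 4 copies of CACGTG, those of Ctsd and Cln3 held 2 each, and that of Atp6v1a held 1. A match is a description of letters and not of a bound site. Of the 7 genes with the motif, 3 had their highest level in microglia and macrophages and 3 in a neuron class, and of the 17 without it 12 were highest in microglia and macrophages and 2 in a neuron class.

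The table held 12823 cells in 17 classes that the column names give, with 569 to 1999 UMIs per cell, and 12630 cells remained after removal of 193 computed doublets. Each mouse contributed 1752 to 2827 cells and 2007205 to 3156614 UMIs, with a median of 1027 to 1095 UMIs per cell. Only 8 of 12811 barcodes occurred in more than 1 mouse. In 10 classes every mouse had at least 20 cells, and for 8 of these the markers fixed for the class were all highest there; CA1 and subiculum neurons had only general neuron markers. The targeted gene Mylip was lower with ASO in microglia and macrophages, at 352.2, 375 and 391 CPM (UMIs per 1000000 UMIs of the class in that mouse) in the PBS mice and 167, 199 and 175 CPM in the ASO mice, a log2 fold change of -1.05 ± 0.178 (SE) with an edgeR adjusted p of 0.00401, or 0.226 without ASO mouse 1. Over all cells its log2 fold change was -0.99 (SE 0.157, edgeR adjusted p = 0.0486), and fewer cells of a type and less RNA per cell cannot be told apart there. That call held under 4 of 14 alternatives, with adjusted p up to 0.428 when PBS mouse 3 was left out. Nothing in the labels pairs the mice, and replicate numbers only name them.

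Lysosomal transcripts were concentrated in the class of microglia and macrophages. The 27 genes made up 0.771% of all UMIs, and in that class they summed to 30613 ± 3560 CPM (SD, n = 6 mice), against 5637 ± 259 in astrocytes, the next class, and 2491 ± 286 in CA1 neurons, the lowest. Between those lay oligodendrocytes at 4192 ± 224, polydendrocytes (oligodendrocyte precursors) at 3825 ± 211, Cajal-Retzius neurons at 3567 ± 741, mural cells at 3413 ± 206, endothelial cells at 3220 ± 211, dentate neurons at 2950 ± 281 and subiculum neurons at 2840 ± 233. Of the 27 genes, 17 had their highest level in microglia and macrophages, where 12.2% of the 14738 genes that reached 10 CPM in some class had theirs. For 14 of the 17 the 6 mice of that class stood above all 6 of the second class, and 12 genes had over 50% of their UMIs in this class, which held 14.7% of the cells. The other 10 genes were highest elsewhere, 2 each in oligodendrocytes, endothelial cells, dentate neurons and subiculum neurons and 1 each in astrocytes and Cajal-Retzius neurons. How cells were assigned to classes is not given in the sources used here and may have drawn on these genes, so levels by class are given as a description with no test, and levels are compared for the same gene between classes, never between genes.

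**Figure D1:**
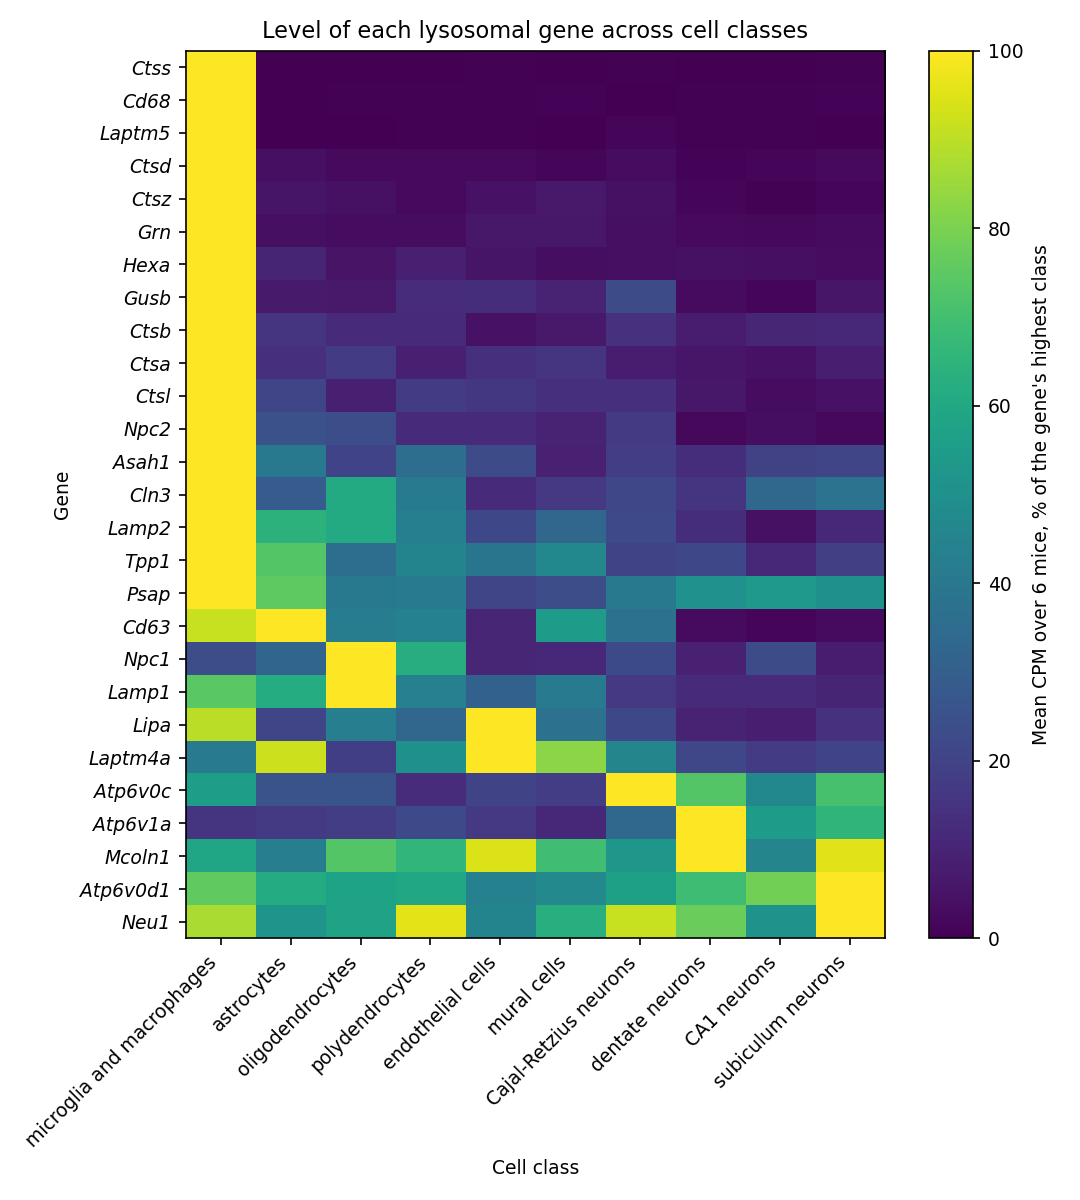
Level of each of the 27 lysosomal genes (rows, ordered by the class in which each is highest) in the 10 classes with at least 20 cells in every mouse (columns), as the mean over 6 mice in percent of the gene's highest class. The column of microglia and macrophages holds the highest value for 17 of the 27 genes, and the neuron columns hold the highest values for Atp6v1a, Mcoln1, Atp6v0d1, Neu1 and Atp6v0c.

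The 6 membrane genes were highest in 4 different classes. Cd68, the glycoprotein used as a marker of phagocytic lysosomes, ranged over the 6 mice from 421 to 643 CPM in microglia and macrophages, with a median of 585, and 96.6% of its UMIs were there. Laptm5, a transmembrane protein of lysosomes in blood-derived cells, ranged there from 2134 to 2459 CPM (median 2304) and had 97.4% of its UMIs there. In the 9 other classes with values per mouse the means reached at most 4.54 CPM for Cd68 and 39.7 CPM for Laptm5. Lamp1, a main structural protein of the lysosomal membrane, was instead highest in oligodendrocytes at 986 ± 114 CPM (SD, n = 6), with microglia and macrophages at 735 ± 127, and the mice of these 2 classes overlapped. Lamp2, its relative with a role in chaperone-mediated autophagy, averaged 390 ± 19.9 CPM in microglia and macrophages and 250.5 ± 20.4 in astrocytes, without overlap. Cd63, a tetraspanin of late endosomes and exosomes, was at 841 ± 76.3 CPM in astrocytes and 769 ± 128 in microglia and macrophages, which overlapped. Laptm4a, a transmembrane protein of late endosomes and lysosomes, was highest in endothelial cells at 845 ± 128 CPM, overlapping astrocytes at 780 ± 71.3, and microglia and macrophages placed 6 of 10 with 347 CPM. Cd63 has 1 annotated pseudogene, so its counts are uncertain to the extent that reads could be split.

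All 7 proteases were highest in microglia and macrophages, 6 of them without overlap with the second class. Ctss encodes cathepsin S, which works at near-neutral pH and trims the invariant chain in antigen presentation. Its level in that class ranged from 5796 to 7253 CPM with a median of 6321, and 98.0% of its UMIs were there. Ctsd, the main aspartic protease of lysosomes, ranged there from 5576 to 9126 CPM (median 7248), and in astrocytes, the second class, from 222 to 356 CPM (median 298). Cathepsin D transcripts thus differed by 25.4-fold between the means of these 2 classes, and cathepsin Z (Ctsz), a carboxypeptidase, by 14.5-fold from its second class, mural cells. The cysteine proteases Ctsb and Ctsl were less restricted: Ctsb averaged 3189 ± 516 CPM there against 491 ± 29.1 in astrocytes, and Ctsl averaged 1650 ± 169 and 347 ± 43.5. Ctsa, the carboxypeptidase that also stabilises β-galactosidase and neuraminidase, was 5.63-fold above oligodendrocytes. Tpp1, a tripeptidyl peptidase lost in a form of Batten disease, averaged 201 ± 56.7 CPM there and 147 ± 22.1 in astrocytes, and these overlapped.

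The glycosidases and lipid genes split between classes. Hexa, the α subunit of β-hexosaminidase, averaged 767 ± 160 CPM in microglia and macrophages against 80.3 ± 14.3 in astrocytes, and Gusb (β-glucuronidase) averaged 295 ± 34.1 against 68.3 ± 41.0 in Cajal-Retzius neurons; neither pair overlapped. Neu1, the lysosomal sialidase, was low throughout, and its highest mean of 56.6 CPM in subiculum neurons overlapped the next class. Npc2, the soluble cholesterol-binding protein of the lysosome, ranged from 926 to 1493 CPM in microglia and macrophages (median 1346) and from 271 to 350 CPM in astrocytes (median 304). Its membrane partner Npc1 was highest in oligodendrocytes, which make cholesterol-rich myelin, at 176 to 228 CPM (median 210). The mice of that class overlapped those of polydendrocytes, the second class, which averaged 128 CPM. Microglia and macrophages placed 4 of 10 for Npc1, at 48.4 CPM, so the 2 partners were highest in different classes. Asah1 (acid ceramidase) was highest in microglia and macrophages at 232 ± 26.8 CPM, above all astrocyte sums. Psap, the precursor of the saposins that activate sphingolipid hydrolases, averaged 906 ± 91.3 CPM there and overlapped astrocytes at 682 ± 76.1. Lipa (lysosomal acid lipase) averaged 116 ± 15.9 CPM in endothelial cells and overlapped microglia and macrophages, which had 104 ± 31.0 CPM.

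The 4 pump and channel genes were each highest in a neuron class, as Neu1 was. This count pools the neuron classes, and the share of all genes highest in each is given below with the other V-ATPase genes. Atp6v1a, the catalytic subunit of the cytosolic V1 sector, ranged in dentate neurons from 926 to 1451 CPM with a median of 1080. In subiculum neurons it ranged from 381 to 904 CPM (median 792) and in CA1 neurons from 519.5 to 693 CPM (median 626), so every dentate sum was above every sum of either class. Microglia and macrophages placed 9 of 10 for it, at 169 CPM. Atp6v0d1, a subunit linking the sectors of the pump, averaged 192 ± 52.5 CPM in subiculum neurons and 145 CPM in microglia and macrophages, and Mcoln1, the calcium-releasing TRPML1 channel, averaged 55.1 ± 16.0 CPM in dentate neurons. Atp6v0c, which forms the proton-conducting ring, was highest in Cajal-Retzius neurons at 61.0 ± 38.0 CPM from 19 UMIs, and it has 2 annotated pseudogenes. For each of these 3 genes the first and second class overlapped. Grn (progranulin), the precursor of the granulins, averaged 911 ± 124 CPM in microglia and macrophages, 15.1-fold above mural cells. Cln3, the membrane protein of juvenile Batten disease, averaged 50.5 ± 12.1 CPM there, from 99 UMIs, and overlapped oligodendrocytes.

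Transcripts of 1 cell type can reach droplets of another as free RNA, so the level in each other class was set beside that of microglia markers. The 8 microglia markers summed, in the 9 other classes, to 0.269 to 0.860% of their level in microglia and macrophages. Ctss stood at 0.186 to 0.529% there, Cd68 at 0 to 0.818% and Laptm5 at 0.193 to 1.74%, the last from 11 UMIs in Cajal-Retzius neurons, where the single marker Tmem119 reached 1.66%. The shares of Ctss and Cd68 lay within the range of the single markers, from 0 to 1.66%, and that of Laptm5 exceeded it in 1 class, so no expression of these 3 genes outside microglia and macrophages is read from them; the part of free RNA was not tested. Ctsd was above the median share of the summed markers, 0.332%, in each other class, at 0.987 to 3.94%. Its lowest share, in dentate neurons, still lay within the range of the single markers. Grn at 2.26 to 6.64%, Hexa at 3.32 to 10.5% and Ctsb at 4.75 to 15.4% were also above that median share. For Ctsz the range was 0.726 to 6.91%, lowest in CA1 neurons, where it too lay within the range of the single markers.

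**Figure D2:**
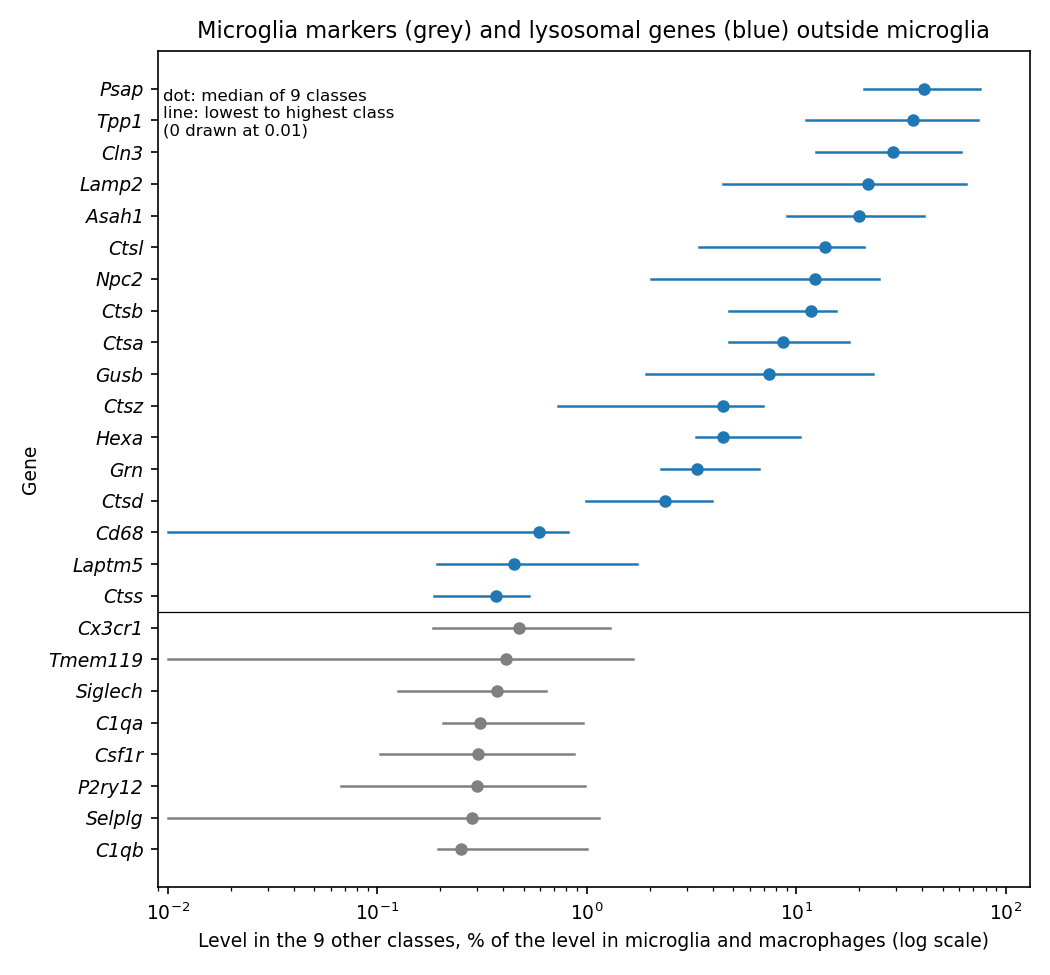
Level in the 9 other classes of the 17 lysosomal genes that are highest in microglia and macrophages (blue) and of the 8 microglia markers (grey), as a percentage of the gene's own level in microglia and macrophages (log axis, 0 drawn at 0.01). Dots are medians of the 9 classes and lines run from the lowest to the highest class: Ctss, Cd68 and Laptm5 lie among or next to the markers, and Ctsd, at 0.987 to 3.94%, and the genes drawn above it have higher medians than all 8 markers.

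Classes too small for values per mouse were summed over all 6 mice, and their exact Poisson 95% intervals cover counting error only. In fibroblast-like cells Laptm4a was at 1792 CPM (1565 to 2044) and Ctsl at 1406 CPM (1206 to 1631). In choroid plexus cells, 39 in number, Psap was at 1176 CPM (915 to 1489), Cd63 at 1074 CPM (825 to 1374) and Ctsd at 1040 CPM (796 to 1336). Laptm4a was at 1103 CPM (973 to 1245) in ependymal cells. In the neurogenesis class, 41 cells in number, Ctss was at 205 CPM (98.1 to 376) from 10 UMIs, Laptm5 at 143 CPM (57.6 to 295) from 7 and Cd68 at 61.4 CPM (12.7 to 179) from 3. Microglia marker levels were not set beside these 3 values, so no expression in that class is read from them. The part of free RNA there was not tested. The values of Laptm4a in fibroblast-like and ependymal cells, and of Psap and Cd63 in choroid plexus cells, lay above the highest mean of the 10 larger classes.

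Lists of 84 other measured lysosomal genes and 3 cathepsin inhibitors showed how far this division of roles extended. Of 35 other hydrolases, 21 were highest in microglia and macrophages, 13 of them without overlap with the second class. Lgmn (legumain), a protease, averaged 1920 ± 129 CPM there against 163 ± 19.3 CPM in oligodendrocytes, the second class. Gm2a, the activator protein for GM2 ganglioside breakdown, was highest in polydendrocytes at 342 ± 65.6 CPM, without overlap with astrocytes at 162 ± 17.1. Of 17 other V-ATPase genes, 12 were highest in a neuron class and 2 in microglia and macrophages. For each of the 12 the first and second class overlapped. Of the 12, 6 were highest in CA1, 4 in subiculum, 1 in dentate and 1 in Cajal-Retzius neurons. Of the 14738 genes that reached 10 CPM in some class, 11.6% were highest in CA1 and 11.01% in subiculum neurons. Dentate neurons were highest for 8.50% and Cajal-Retzius neurons for 11.2%. The count of 12 pools these classes, so it is to be set beside the sum of their shares and not beside a single share. The V-ATPase genes of this list summed to 3482 ± 271 CPM in subiculum, 3238 ± 272 in CA1 and 3122 ± 254 in dentate neurons. In microglia and macrophages they summed to 2099 ± 143 CPM. Tcirg1, the a3 subunit, was 1 of those 2, at 202 ± 34.1 CPM against 35.9 ± 11.7 in endothelial cells. Of 22 other membrane genes 8 were highest in microglia and macrophages, and of 10 sorting and regulatory genes 5 were. Sort1 (sortilin), a sorting receptor that carries progranulin and prosaposin to lysosomes, was highest in CA1 neurons at 398 ± 84.0 CPM, above all dentate sums.

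With the ASO, no lysosomal gene passed the test in any class. In microglia and macrophages all 27 genes were tested and 22 had a higher fitted level in the ASO mice, with a median log2 fold change of 0.18, beside a median of -0.01 over the 5476 genes tested, 49.0% of which were higher. None of the 27 passed an adjusted p of 0.05 in edgeR's quasi-likelihood test, where 2 of the 5476 genes, 0.0365%, did; 5 of the 27 were under an unadjusted p of 0.05 beside 5.64% of all genes, and DESeq2 and limma voom called 0 and had 6 each under it. For 4 genes, Cd68, Ctsa, Npc2 and Cln3, every ASO mouse was above every PBS mouse, which held for 5.04% of all genes tested. For none was every ASO mouse below, beside 5.99% of all genes. By role, 5 of 6 membrane genes, 6 of 7 proteases, 2 of 3 glycosidases, 3 of 5 lipid genes and 6 of 6 pump, channel and other genes were on the higher side.

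The 8 genes with the lowest unadjusted p in microglia and macrophages are given mouse by mouse. Npc2 was at 926, 1320 and 982 CPM in the PBS mice and at 1493, 1372 and 1468 CPM in the ASO mice. Its groups did not overlap, though PBS mouse 2 was close to ASO mouse 2, and the log2 fold change was 0.44 ± 0.161 (SE) with an edgeR adjusted p of 0.769. Cd68 was at 470, 583 and 421 CPM with PBS and at 588, 625 and 643 CPM with ASO, again without overlap, with a log2 fold change of 0.35 ± 0.161 (SE) with an edgeR adjusted p of 0.867. Cln3, a gene of few counts, was at 43.6, 52.7 and 29.7 CPM with PBS and at 58.4, 63.0 and 55.4 CPM with ASO, a log2 fold change of 0.52 ± 0.319 (SE) with an edgeR adjusted p of 0.885. In the other 5 genes the groups overlapped.

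Ctsd was at 7164, 7333 and 5576 CPM in the PBS mice and at 9064, 6441 and 9126 CPM in the ASO mice, so ASO mouse 2 was below 2 of the 3 PBS mice (0.32 ± 0.174 on the log2 scale, edgeR adjusted p = 0.885). Hexa was at 624, 790 and 612 CPM with PBS and at 972, 664 and 942 CPM with ASO, a log2 fold change of 0.38 with an SE of 0.166. The same ASO mouse 2 was again the low one, below PBS mouse 2. For Ctsz the PBS mice had 996, 951 and 839 CPM and the ASO mice 1239, 906 and 1388 CPM (log2 fold change 0.37, SE 0.163). Cd63 was at 704, 780 and 577 CPM with PBS and 939, 742 and 874 CPM with ASO (0.34, SE 0.160), where ASO mouse 2 lay inside the PBS range. Lipa went the other way, at 134, 148 and 80.9 CPM with PBS and 77.2, 77.6 and 105 CPM with ASO, a log2 fold change of -0.44 with an SE of 0.250. Adjusted p was 0.825 for Hexa and Ctsz, 0.882 for Cd63 and 0.885 for Lipa in edgeR. For the remaining 19 genes the fitted log2 fold changes lay between -0.36 (Neu1) and 0.59 (Atp6v0c), and those of Ctss, Laptm5, Lamp2, Ctsl, Grn and Psap lay between 0.02 and 0.10.

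**Figure D3:**
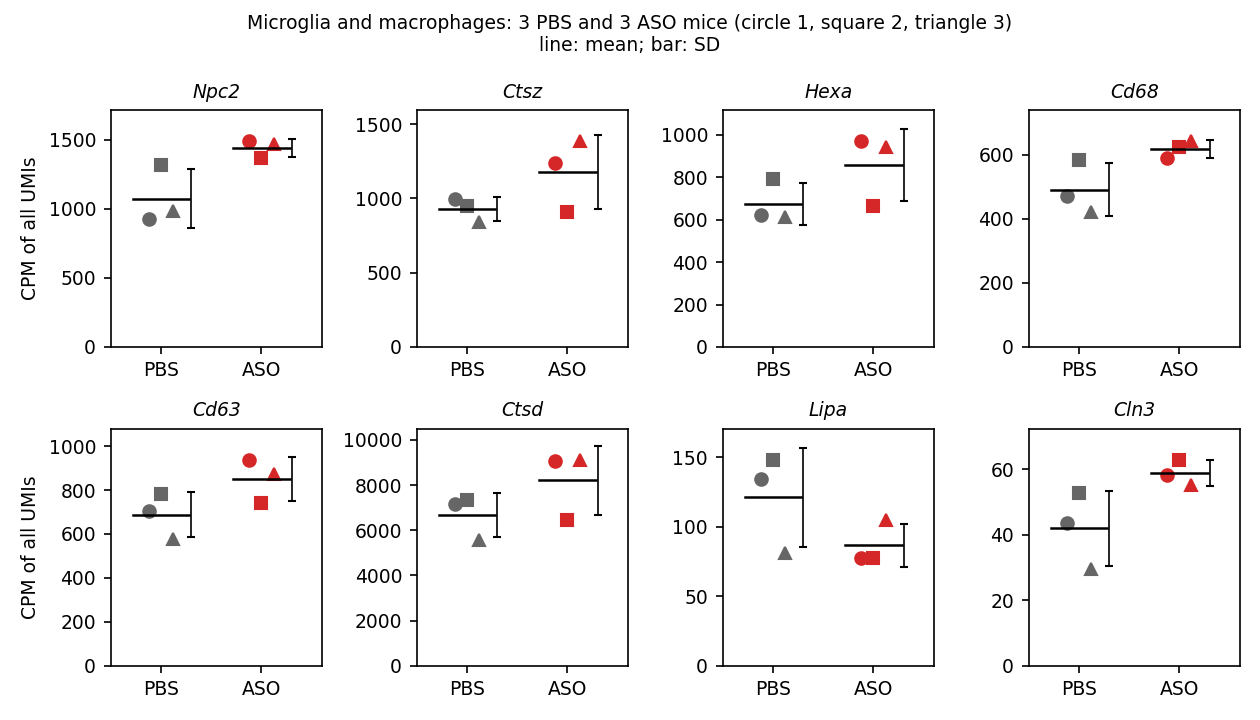
CPM in microglia and macrophages of the 8 lysosomal genes with the lowest unadjusted p, 1 point per mouse (3 PBS, 3 ASO), with lines at the group means. The points of Npc2, Cd68 and Cln3 do not overlap between groups, and ASO mouse 2 lies inside the PBS range for Ctsd, Ctsz, Hexa and Cd63.

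The direction depended on which mice were set side by side. Ordered by the ratio of the mitochondrial transcripts mt-Rnr2 and mt-Cytb, the libraries were cut into 3 consecutive pairs, called technical sets here. Each pair held 1 PBS and 1 ASO mouse. This ratio is a technical feature known from an earlier analysis and not a batch that the labels name. In ASO and PBS mice it was 4.49 and 7.16 (mice 2), 10.9 and 12.9 (mice 1), and 15.9 and 16.8 (mice 3). The cut into pairs was imposed on this graded order and not found by a test. Within the set of PBS mouse 3 and ASO mouse 3, 26 of the 27 genes were higher with ASO in microglia and macrophages, with a median log2 ratio of 0.36. Within the set of both mice numbered 1, 19 were higher (median 0.17), and within the set of both mice numbered 2 only 9 were higher and 18 lower (median -0.07). For Ctsd the log2 ratios were -0.19 (mice 2), 0.34 (mice 1) and 0.71 (mice 3), and for Npc2 they were 0.06, 0.69 and 0.58. PBS mouse 3 had the lowest level of all 6 mice in 17 of the 27 genes, or 63.0%, beside 16.9% of all genes tested. Without it the median log2 fold change was 0.11 and 19 genes were higher, without ASO mouse 1 it was 0.11, and without ASO mouse 2 it was 0.27.

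Markers of other cells in the same class were recorded beside these values. Summed macrophage markers, none of the 6 at 0, ranged from 132 to 619 CPM in the PBS mice and from 292 to 572 CPM in the ASO mice, and 5 of 5 tested were on the higher side with ASO. The share of cells holding such a marker was 5.49, 7.96 and 2.84% in the PBS mice and 7.48, 6.97 and 9.09% in the ASO mice, so PBS mouse 3 was lowest here too. Without those cells the median log2 fold change of the lysosomal genes was 0.18 and 20 of 26 tested were higher. Summed microglia markers ranged from 15382 to 16055 CPM with PBS and from 14902 to 15932 CPM with ASO, and 6 of 8 were on the lower side with a median log2 fold change of -0.11, 1 of them under an unadjusted p of 0.05. Erythroid markers summed to 101 to 138 CPM with PBS and 132 to 184 CPM with ASO, and 3 of 3 were on the higher side (median 0.46). Oligodendrocyte markers summed to 922 to 1251 CPM with PBS and 1362 to 1454 CPM with ASO, and choroid plexus markers to 51.3 to 5273 CPM and 2341 to 7228 CPM, with none of the 6 and none of the 5 at 0. Of 4 oligodendrocyte markers tested, 3 were on the higher side (median 0.40), 2 of them under an unadjusted p of 0.05 in edgeR. Their lowest edgeR adjusted p was 0.156. None of the 8 microglia and 3 erythroid markers was at 0 either. The part of the microglia, erythroid, oligodendrocyte and choroid plexus transcripts in the lysosomal values was not tested.

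The other lysosomal lists gave the same count of calls in microglia and macrophages, 0 in each. Of the hydrolases 20 of 27 tested were on the higher side with a median log2 fold change of 0.20, and their sum was 7141 to 7184 CPM in the PBS mice and 7202 to 7446 CPM in the ASO mice. Of the V-ATPase genes 9 of 14 were higher, of the membrane genes 10 of 17, of the sorting and regulatory genes 1 of 6, and of the cathepsin inhibitors 3 of 3. The lowest unadjusted p belonged to Cst7 (cystatin F, an inhibitor of cathepsin activation), with a log2 fold change of 0.45, an SE of 0.160 and an edgeR adjusted p of 0.752. Man2b1, the lysosomal α-mannosidase, followed at 0.41, and Ppt1, a palmitoyl thioesterase, was at 0.35. Lower values belonged to the endolysosomal channel Tpcn1 at -0.80, to Sort1 at -0.57, to the pump subunit Atp6v1e1 at -0.45 and to the amino acid sensor Slc38a9 at -0.42. Tcirg1 was at 0.36, Cstb (cystatin B) at 0.41 and Nagpa, which uncovers the mannose 6-phosphate tag, at 0.27, and edgeR adjusted p was 0.752 or more for all of these.

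In the other classes fewer lysosomal genes had enough counts to be tested. The share of all genes tested that were higher with ASO ran there from 49.6% in polydendrocytes to 52.5% in subiculum neurons. In oligodendrocytes 16 of 23 tested were on the higher side with a median log2 fold change of 0.04, and 0 were called, beside 15 of 7140 genes (0.21%). There Ctsb was at 351.7, 345 and 286 CPM in the PBS mice and 429, 455 and 499 CPM in the ASO mice, without overlap, at a log2 fold change of 0.45 ± 0.150 (SE) with an edgeR adjusted p of 0.343. Cln3 was at 38.0, 29.0 and 48.1 CPM against 15.6, 30.1 and 24.6 CPM, with overlap, at a log2 fold change of -0.79 ± 0.338 (SE) with an edgeR adjusted p of 0.644, from 11 to 23 UMIs per mouse. The sign of Cln3 thus differed from that in microglia and macrophages. In astrocytes 13 of 19 were higher (median 0.04), 0 called of 6285 genes (0%), and Ctsd was at 285.5, 255 and 222 CPM with PBS and at 356, 335 and 310 CPM with ASO, without overlap (0.40, SE 0.172, adjusted p 0.9996 in edgeR). Ctsz there was at 66.6, 47.0 and 38.9 CPM with PBS and 47.6, 77.6 and 78.3 CPM with ASO, with overlap (0.41, SE 0.293). In polydendrocytes 9 of 15 were higher (median 0.09), 0 called beside 0.0441% of genes, and Ctsd was again without overlap, at 136, 167 and 149.5 CPM with PBS and 237, 217 and 197 CPM with ASO (0.53, SE 0.244, adjusted p 0.9997 in edgeR). Tpp1 in polydendrocytes was at 59.0, 79.8 and 88.9 CPM with PBS and 164, 82.3 and 72.6 CPM with ASO, and its log2 fold change of 0.48 (SE 0.338) was 0.02 without ASO mouse 1. Of the tested genes, every ASO mouse was above every PBS mouse for 2 in oligodendrocytes (Ctsb, Psap), 1 in astrocytes (Ctsd) and 2 in polydendrocytes (Ctsd, Asah1), beside 7.32, 5.03 and 4.05% of all genes tested there. Every ASO mouse was below for 0, 2 (Cd63, Neu1) and 0, beside 4.59, 3.99 and 4.67%.

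Vascular and neuron classes had fewer counts still. In endothelial cells 11 of 20 genes were on the higher side (median 0.01, 0 called of 6224 genes, 0%), and the lowest unadjusted p belonged to Ctsz at -0.57 (SE 0.325) and Tpp1 at -0.43 (SE 0.267). With 1 mouse left out these ranged from -0.91 (without ASO mouse 1) to -0.28 (without ASO mouse 2) for Ctsz and from -0.70 (without ASO mouse 1) to -0.25 (without ASO mouse 3) for Tpp1. In mural cells 5 of 7 were higher (median 0.18, 0 called beside 0.259% of genes), and Ctsb was at 174.5, 174 and 148.5 CPM with PBS and 210, 199 and 370 CPM with ASO from 8 to 26 UMIs per mouse. Psap in mural cells was at 255, 153 and 136 CPM with PBS and 226, 265 and 247 CPM with ASO, with overlap (0.41, SE 0.340). In dentate neurons 7 of 11 were higher (median 0.06, 0 called of 5066 genes), with Laptm4a at 0.40 and Lamp1 at 0.52, the latter resting on ASO mouse 2 at 231 CPM beside 67.7 to 126 CPM in the other 5 mice; without that mouse it was -0.02. The pump subunit Atp6v1a, highest in dentate neurons, was tested there and not called. In Cajal-Retzius neurons 51.3% of the 1041 genes tested were higher, with a median of 0.01, and 0 were called. Of the lysosomal genes there 9 of 9 were higher with a median of 0.39, and 0 of the 9 were without overlap between groups. That median ranged from 0.14 (without ASO mouse 3) to 0.69 (without ASO mouse 1) with 1 mouse left out, and the lowest unadjusted p belonged to Ctsl at 0.75 (SE 0.452) and Npc2 at 0.64 (SE 0.448), from 5 to 16 UMIs per mouse. In CA1 neurons 3 of 3 were higher (median 0.39), beside 49.9% of the 946 genes tested. Ctsb was among them at 287, 310 and 189 CPM with PBS and 374, 375 and 503 CPM with ASO, with Psap at 0.39 (SE 0.275). In subiculum neurons 3 of 4 were higher (median 0.16, 0 called beside 0.187% of genes), with Atp6v1a at 0.17 (SE 0.311) and Psap at 0.16 (SE 0.333). Over all cells 20 of 27 were higher (median 0.08, 0 called beside 0.0143% of 14006 genes), and Lamp2 was at 174.5, 188 and 180 CPM with PBS and 198, 207 and 214 CPM with ASO, a log2 fold change of 0.19 (SE 0.121), and Npc2 was at 0.22 (SE 0.137). Groups without overlap and ASO above were found for Ctsb in mural cells and CA1 neurons and for Lamp2 and Atp6v0d1 over all cells, beside 5.76, 4.44 and 4.45% of all genes tested, and for 0 genes in endothelial cells (4.9%), dentate neurons (4.76%), Cajal-Retzius neurons (3.94%) and subiculum neurons (4.58%). In none of these 7 fits was every ASO mouse below for a lysosomal gene, beside 6.14% of genes in mural cells, 4.97% in CA1 neurons, 4.58% over all cells, 4.53% in endothelial cells, 3.91% in dentate neurons, 6.15% in Cajal-Retzius neurons and 5.43% in subiculum neurons.

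Unadjusted p under 0.05 in edgeR was reached by 2 lysosomal genes in oligodendrocytes (6.6% of all genes), by 1 in astrocytes (3.42%) and by 1 in polydendrocytes (4.03%). It was reached by 0 over all cells (4.03%) and by 0 in endothelial cells (4.1%), dentate neurons (3.4%), mural cells (8.09%), Cajal-Retzius neurons (4.32%), CA1 neurons (4.12%) and subiculum neurons (5.71%). DESeq2 and limma voom called 0 lysosomal genes in every class, and those 2 tools had 1 and 2 under an unadjusted p of 0.05 in oligodendrocytes, 0 and 1 in astrocytes and 0 and 1 in polydendrocytes.

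**Figure D4:**
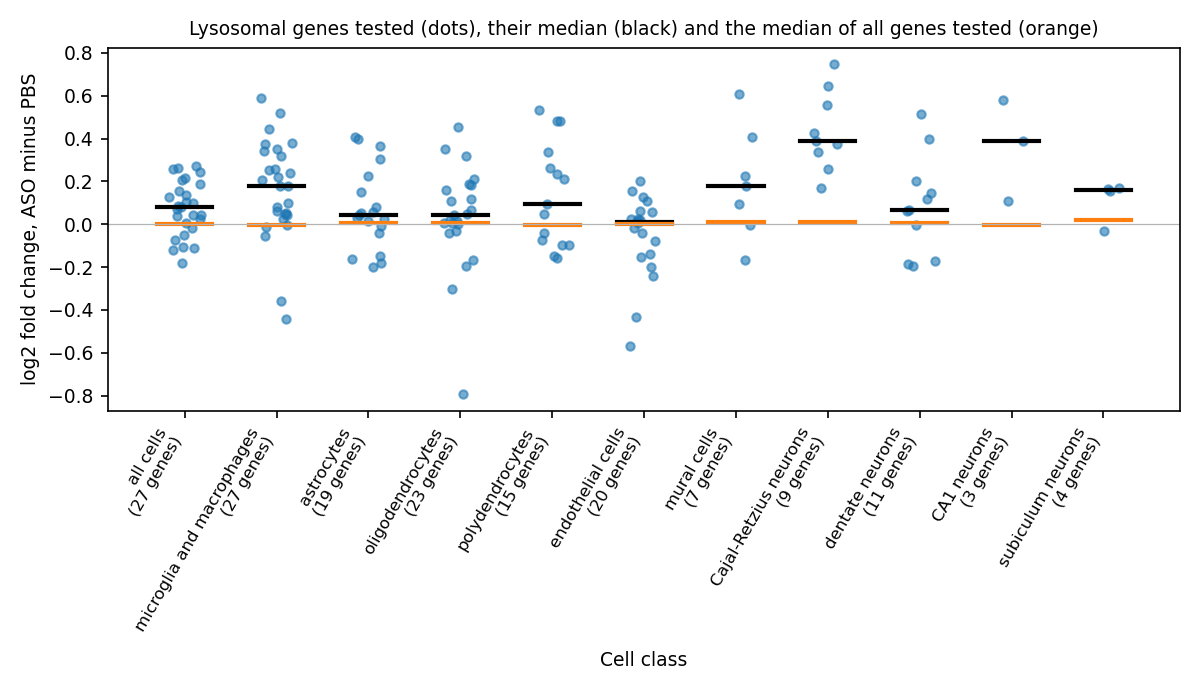
Log2 fold change, ASO against PBS, of each tested lysosomal gene (points) in the 10 classes and over all cells, with the median of the genes and the median over all genes tested. Genes tested range from 3 in CA1 neurons to 27 in microglia and macrophages, and none is past an adjusted p of 0.05.

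Whether the ASO difference in microglia and macrophages departed from that in the rest of the cells was tested directly. The fit used 2 sums per mouse, this class and all other cells, with the mouse as a block. The interaction was above 0 for 17 of 27 lysosomal genes with a median of 0.10 on the log2 scale, and 0 were called, beside 4 of 12873 genes (0.0311%). At an unadjusted p under 0.05 there were 3 genes, beside 5.19% of all genes. Npc2 had the lowest p, with a difference of 0.40 (SE 0.160, edgeR adjusted p = 0.817), followed by Cln3 at 0.95 (SE 0.443, edgeR adjusted p = 0.958) and Cd63 at 0.33 (SE 0.159, edgeR adjusted p = 0.958). A difference between classes was thus not detected for any of the 27 genes in this fit.

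Within the class of microglia and macrophages, cells holding a macrophage marker UMI (Mrc1, Pf4, Cd163, Lyve1, Ms4a7, F13a1) were compared with the rest. The 10 to 33 such cells per mouse were set against the remaining cells of the same mouse, a split that uses no lysosomal gene, at median depths of 974 to 1342 and 942 to 1025 UMIs per cell. All 8 microglia markers were lower in the cells with a marker UMI, 6 of them past the threshold. Of 22 lysosomal genes tested, 2 were called higher (beside 4.9% of 2080 genes) and 3 lower (beside 5.91%), 5 in all beside 10.8%. A UMI is detected by chance in some macrophages and missed in others, so the split is of cells by detected RNA and not of cell types.

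Cathepsin L, cathepsin S and Laptm5 transcripts fell and those of Cd63 and cathepsin B rose in the cells with a macrophage marker UMI. Ctsl averaged 1108 ± 423 CPM in these cells and 1698 ± 186 CPM in the rest (SD, n = 6 mice), lower in 5 of 6 mice, with a log2 difference of -0.71 (SE 0.174, edgeR adjusted p = 0.00269). Ctss averaged 4838 ± 1198 and 6570 ± 530 CPM and was lower in 6 of 6 mice (-0.47, SE 0.136, edgeR adjusted p = 0.0131). Laptm5 averaged 1680 ± 305 and 2331 ± 141 CPM, also lower in 6 of 6 mice (-0.50, SE 0.151, edgeR adjusted p = 0.0208). Cd63 averaged 1203 ± 420 CPM in the cells with a marker UMI and 738 ± 121 CPM in the rest, higher in 5 of 6 mice (0.64, SE 0.186, edgeR adjusted p = 0.0131). Ctsb averaged 4271 ± 1217 and 3108 ± 473 CPM, higher in the same 5 mice (0.41, SE 0.141, edgeR adjusted p = 0.0474), and PBS mouse 1 went the other way for both. Npc2 was higher in 6 of 6 mice at 0.41 (SE 0.156) and did not pass, at an edgeR adjusted p of 0.0913. The rises of Cd63 and Ctsb depended on the filter for low counts: with none, Cd63 was at 0.00 and Ctsb at -0.24. Over the 9 alternatives the lowest values were -1.35 for Ctsl, -1.13 for Ctss and -1.14 for Laptm5. With 1 mouse left out their lowest values were -0.85, -0.54 and -0.58. All 5 genes were thus lower in some alternative, and a shift common to all genes was not tested. The median of all genes was -0.09 with the filter and is not given here without it. Across 9 alternatives Ctsl passed the threshold in 9, Ctss in 8, Laptm5 and Cd63 in 5 each and Ctsb in 3. The fit without the filter is 1 of those 9. Leaving out PBS mouse 2, PBS mouse 3, ASO mouse 1 or ASO mouse 3 reduced the 5 calls to 3, 2, 3 and 2.

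Among the other lysosomal genes in the same comparison, Ctsc, which encodes the cathepsin C that activates granule proteases, was higher by 2.56 on the log2 scale, at 1643 ± 348 against 280 ± 79.1 CPM and in 6 of 6 mice (SE 0.186, edgeR adjusted p = 4.42e-17). Lgmn was lower by a log2 difference of -0.46, in 5 of 6 mice. The cathepsin inhibitors diverged: Cst3 (cystatin C), which is secreted, was at 17487 ± 3019 against 40560 ± 3385 CPM, a log2 difference of -1.24 in 6 of 6 mice, and Cstb, which acts inside the cell, was higher at 1.16 in 5 of 6 mice. Each passed an adjusted p of 0.05 in edgeR.

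**Figure D5:**
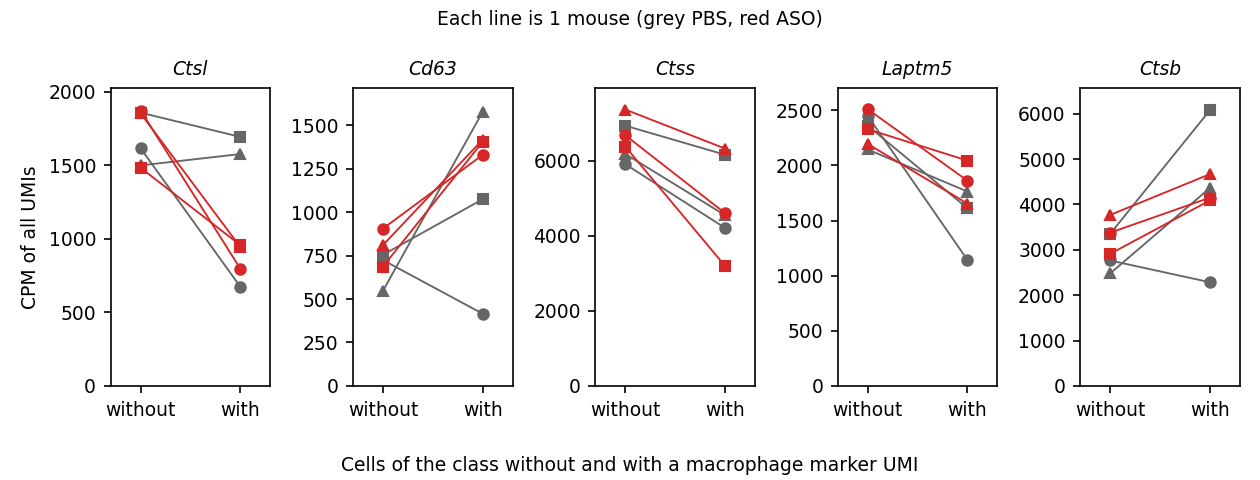
CPM of the 5 called lysosomal genes in the cells of each mouse without and with a macrophage marker UMI, with a line joining the 2 sums of 1 mouse. Lines fall in 6 of 6 mice for Ctss and Laptm5 and in 5 of 6 for Ctsl, and rise in 5 of 6 for Cd63 and Ctsb.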

How the data were processed

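UMI counts per gene and cell from 6 mice were used as the authors deposited them, in 1 table whose column names give mouse and class. Per the submitters' processing notes, reads were handled with bcl2fastq and STAR 2.5.0c on mm10/GRCm38. For the counting program and annotation these sources give no name. Doublets were called per mouse with Scrublet (scanpy 1.11.5, seed 1) and removed. Counts were summed per mouse and class and fitted for classes with 20 or more cells in each mouse, with edgeR 4.0.16 (filterByExpr, TMM, quasi-likelihood test, two-sided, Benjamini-Hochberg over all genes of the class, threshold 0.05) in R 4.3.3. SE is the log2 fold change divided by the square root of F. CPM is per 1000000 of all UMIs of the sum. Alternatives were other size factors, no filter, DESeq2 1.42.0, limma 3.58.1 voom, doublets kept, thinned sums, a 10% mitochondrial limit, a term for the technical sets, and each mouse left out. Members and lists were chosen with earlier results of these data known. Named were Mylip, members past the threshold, the 8 lowest unadjusted p in microglia and macrophages, 2 in each other class, 3 where fewer passed in the interaction and the macrophage marker split, and, of other lysosomal genes, called ones and 2 per list in microglia. A called gene of the other lysosomal lists is not reported here. Further genes named for their level across classes, and the small classes, were chosen after their values were seen. The labels name each sample as its own mouse.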

Additional observations from a re-analysis of the deposited data

How the results depend on the processing

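The labels do not pair the mice. A fit with a term for the 3 technical sets, each of 1 PBS and 1 ASO mouse, called 0 lysosomal genes in any class, and in microglia and macrophages 24 of 27 were higher with a median log2 fold change of 0.18. No lysosomal gene was called with ASO in any class under any alternative, and the median log2 fold change in microglia and macrophages stayed between 0.10 and 0.27. In Cajal-Retzius neurons the median ranged from 0.145 to 0.692 and in CA1 neurons from 0.253 to 0.3995 with 1 mouse left out. In 4 other classes the median changed sign: leaving out 1 mouse gave -0.0368 to 0.0876 in oligodendrocytes (lowest without PBS mouse 3), -0.0327 to 0.112 in astrocytes (lowest without ASO mouse 2), -0.0895 to 0.0331 in endothelial cells (lowest without PBS mouse 2), -0.0269 to 0.0583 in dentate neurons (lowest without PBS mouse 1). In mural cells it gave 0.0661 to 0.317 (highest without PBS mouse 1). With doublets kept the mural median was 0.0427, with thinned sums 0.0572, and without the filter the subiculum median was 0.312, where the median of all genes moved to 0.19 (0.12 in CA1 neurons). With 1 mouse left out, Lamp1 in dentate neurons ranged from -0.0241 (without ASO mouse 2) to 0.758 and Atp6v1a in subiculum neurons from -0.0953 (without PBS mouse 1) to 0.366. In the macrophage marker split, 9 lysosomal genes were called without the filter, where Ctsb was -0.244 and Cd63 0.002. A shift common to all genes was not tested there, so these 9 are not read as more genes that differ. With 1 mouse left out 2 to 6 were called (3 without PBS mouse 2 or ASO mouse 1, 2 without PBS mouse 3 or ASO mouse 3). The causes of these changes were not tested. With 3 mice per group, depth and number limited the tests in small classes most: 3 lysosomal genes could be tested in CA1 neurons.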
